A study of Mus musculus with 30 samples.

Results

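The comparison set 2 array samples of RNA from RAG1-/- pro-B cells against 2 from EBF-/- pre-pro-B cells, 4 of the 30 samples of the series, and was read across all genes on the array. The series as a whole follows the transcription factors E2A, EBF1 and FOXO1 through early B cell development in mice. RAG1-/- pro-B cells lack the Rag1 gene; they were enriched from bone marrow by the surface protein B220 with magnetic beads and grown for 10 d with the cytokines IL-7 and SCF. EBF-/- pre-pro-B cells lack the factor EBF1 and were grown over a layer of S17 stroma to which FLT3 ligand, IL-7 and SCF were added, for a time the labels do not give. Both came from C57BL/6 mice. Neither the ages of the animals nor the number of animals or cultures behind a replicate is given. The p-values therefore cannot be taken to measure the spread between animals or cultures. Genotype, stage, purification and culture all differ between the groups and cannot be told apart. For each sample, 250 ng of total RNA was amplified and labelled.

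A B lymphocyte forms in steps. The early pre-pro-B cell still shares gene expression with other lymphoid and myeloid progenitors. E2A and FOXO1 work with EBF1 there, EBF1 switches on the Pax5 gene, and PAX5 holds the cell in the B lineage as a pro-B cell. A pro-B cell joins immunoglobulin heavy chain segments with the RAG1 and RAG2 proteins, and tests the product in a pre-B cell receptor made with the surrogate light chain. Cells without RAG1 stop before that test, and cells without EBF1 stop before commitment.

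The targeted genes were read first. Ebf1 had a log2 intensity (quantile-normalized, the scale of every level below) of 12.56 and 12.39 in RAG1-/- cells, against 10.85 and 10.89 in EBF-/- cells, at the probe for its RefSeq transcript on mouse build mm8, chr11:44848286-44848345. A second Ebf1 probe at chr11:44492539-44492598 read 8.38 and 8.26 in RAG1-/- cells, against 4.48 and 3.33 in EBF-/- cells, where it was not well above background. Ebf1 signal was therefore lower in both EBF-/- samples but not gone at the first probe. The labels do not say which exons the mutant alleles lack, so a probe may lie outside the deleted part and such a level checks little. Rag1 had log2 intensities of 10.53 and 11.11 in RAG1-/- cells, against 9.78 and 9.57 in EBF-/- cells, and its other 2 probes were also higher in the RAG1-/- samples. Signal at the Rag1 probes in cells named for its loss is not a check of the genotype for the same reason. The single Rag2 probe read 4.56 and 5.92 in RAG1-/- cells, against 6.28 and 6.00 in EBF-/- cells, and was too dim to be tested.

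The labelled stages were set against their markers. The pro-B markers Pax5, Vpreb1, Igll1, Cd79a, Cd79b, Enpep, Rag1, Dntt and Il7r were well above background in both RAG1-/- samples, and all of these but Il7r were called higher there. Il7r, the IL-7 receptor chain on which both stages depend, read 13.42 and 12.95 in RAG1-/- cells, against 13.21 and 13.13 in EBF-/- cells. All 9 markers of pre-pro-B cells and earlier progenitors (Flt3, Kit, Notch1, Hoxa9, Meis1, Cd34, Il7r, Ly6d and Ptprc) were well above background in both EBF-/- samples. Among those 9, 7 were called lower in RAG1-/- cells, Ly6d was called higher and Il7r was not called. Cd79a and Enpep were not well above background in either EBF-/- sample.

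The 2 groups differed across a large part of the genome. Of 12552 genes tested with limma, a linear model with a variance shared across genes, 2560 (20.4%) were higher and 2575 (20.5%) were lower in RAG1-/- cells at an adjusted p under 0.05 (Benjamini-Hochberg over all genes tested). The difference was over 2-fold for 1507 of the higher and 1560 of the lower genes, and over 16-fold for 276 and 231. Over all genes the median log2 difference, RAG1-/- minus EBF-/-, was 0.04 and the median standard error 0.17. Replicates correlated at r = 0.981 in RAG1-/- cells and 0.989 in EBF-/- cells over the genes, and samples of different groups at 0.847 to 0.861. An exact permutation test of 2 samples against 2 cannot go below p = 0.333 (two-sided), so calls rest on the spread estimated across genes. Fewer genes were called with either EBF-/- sample left out, where the spread within a group came from the 2 RAG1-/- samples alone. More were called with either RAG1-/- sample left out. Of the genes tested, 590 were over 2-fold apart between the RAG1-/- replicates and 554 between the EBF-/- replicates.

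**Figure D1:**
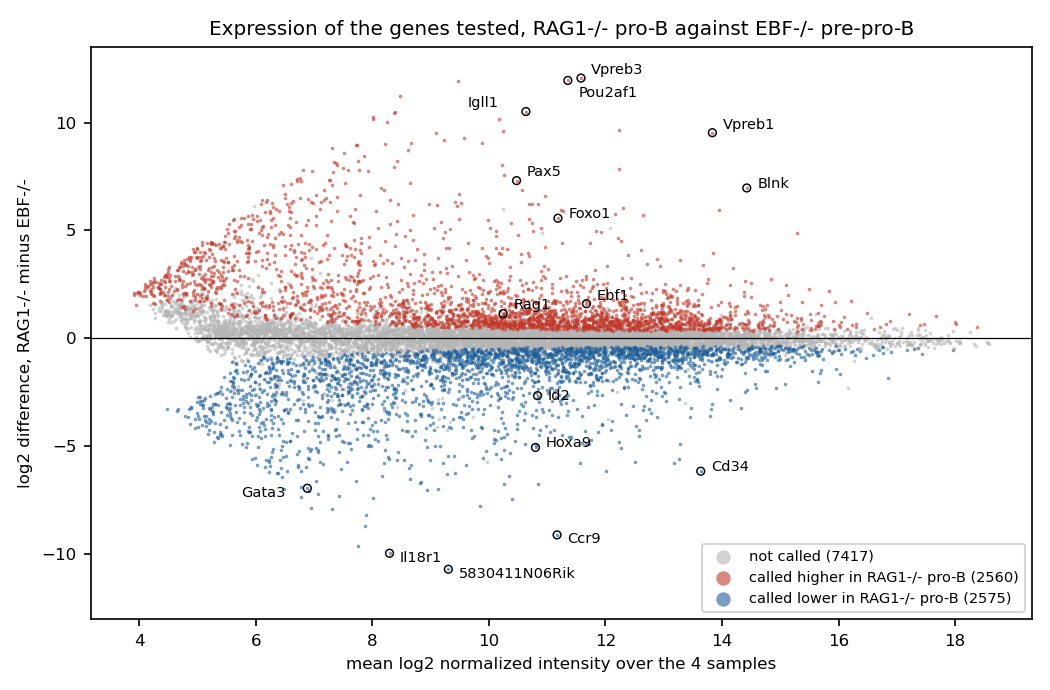
Each point is 1 of the 12552 genes tested, at its mean log2 normalized intensity over the 4 samples (x axis) and its log2 difference, RAG1-/- pro-B minus EBF-/- pre-pro-B (y axis); red genes were called higher (2560), blue genes lower (2575) and grey genes were not called. Vpreb3 (12.06) and Pou2af1 (11.95) lie near the top and 5830411N06Rik (-10.69) and Ccr9 (-9.10) near the bottom, points of genes not well above background in 1 group (Il18r1 among them) are plotted at their measured signal, and calls reach both dim and bright genes.

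Depth on an array is signal over background. In RAG1-/- replicates 1 and 2, 54.8% and 54.7% of 43379 spots were well above background, and in EBF-/- replicates 1 and 2 the shares were 44.2% and 51.6%. The lowest well-measured log2 intensity was 4.67 and 4.71 in the RAG1-/- samples, against 6.29 and 5.25 in the EBF-/- samples. A gene whose probe was not well above background in either sample of the dimmer group has only a bound there, written below as at least N-fold, and this held for 504 of the genes called higher and 216 of those called lower. For 71 of the 504 the bound was under 1, so no fold is given for them. Genes with only a bound were tested because both samples of the other group were well above background. Their direction was thus largely set by that filter. Some named genes were well above background in only 1 of the 2 samples of the dimmer group, so the size of their difference rests in part on a signal near background. These were Vpreb2, Vpreb3, Igll1, Pou2af1, Lef1, Id3, Bst1 and Car2 among genes called higher, and 5830411N06Rik, Pdcd1, Tph1, Nrp2, Adgre1, Il2rb, Ier3, Ccl4 and Siglech among genes called lower. No gene tested was saturated in both samples of a group. With 2 samples a group, the number of arrays limits the precision of every value.

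Promoters of genes that moved together are shown here with the binding sequences of the network's factors, because the surrogate light chain, receptor and recombination genes are its textbook targets. The E-boxes CAGCTG and CAGGTG are bound by E2A, CCCNNGGG is the core of the EBF1 palindrome, TGTTTAC is a FOXO site and GAGGAAGT is a PU.1 site. Both strands were searched, so CACCTG stands for CAGGTG. Sequences run from 250 bases before to 50 after the RefSeq start on GRCm38.p6, 5′ to 3′ on the gene's strand, and capitals mark the motif matches. The first 5 genes rose in RAG1-/- cells.
Igll1: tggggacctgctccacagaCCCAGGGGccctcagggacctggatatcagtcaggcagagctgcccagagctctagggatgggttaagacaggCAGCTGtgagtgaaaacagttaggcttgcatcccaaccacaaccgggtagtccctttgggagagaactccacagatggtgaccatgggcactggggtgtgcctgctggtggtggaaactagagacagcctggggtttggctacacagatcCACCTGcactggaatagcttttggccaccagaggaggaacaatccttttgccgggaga
Vpreb1: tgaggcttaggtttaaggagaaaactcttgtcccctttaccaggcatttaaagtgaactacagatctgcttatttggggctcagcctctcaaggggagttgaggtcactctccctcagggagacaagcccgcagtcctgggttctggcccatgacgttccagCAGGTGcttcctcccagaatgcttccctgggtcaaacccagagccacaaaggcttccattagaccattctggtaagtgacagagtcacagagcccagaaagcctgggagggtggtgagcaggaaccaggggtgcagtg
Cd79a: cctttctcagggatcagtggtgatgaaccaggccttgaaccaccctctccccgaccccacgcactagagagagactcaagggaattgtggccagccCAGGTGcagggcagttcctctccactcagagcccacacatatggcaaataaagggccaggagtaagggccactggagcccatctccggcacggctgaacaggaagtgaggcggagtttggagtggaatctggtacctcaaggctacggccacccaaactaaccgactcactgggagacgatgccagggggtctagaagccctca
Blnk: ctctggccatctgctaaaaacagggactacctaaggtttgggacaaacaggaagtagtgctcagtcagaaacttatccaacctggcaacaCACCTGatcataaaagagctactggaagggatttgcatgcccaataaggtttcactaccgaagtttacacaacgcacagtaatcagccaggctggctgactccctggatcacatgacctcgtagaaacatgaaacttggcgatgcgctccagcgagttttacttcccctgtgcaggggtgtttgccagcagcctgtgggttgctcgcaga
Rag1: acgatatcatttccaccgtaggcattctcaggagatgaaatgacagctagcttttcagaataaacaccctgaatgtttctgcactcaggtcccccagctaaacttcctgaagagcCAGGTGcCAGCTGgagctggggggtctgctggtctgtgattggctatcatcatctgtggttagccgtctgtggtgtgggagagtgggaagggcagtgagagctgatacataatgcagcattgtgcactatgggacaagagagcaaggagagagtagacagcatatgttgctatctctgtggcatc
They lie at chr16:16863936-16864235 (minus strand), chr16:16869206-16869505 (minus strand), chr7:24897247-24897546 (plus strand), chr19:40994172-40994471 (minus strand) and chr2:101649483-101649782 (minus strand). Each of the 5 windows holds CAGGTG, and those of Igll1 and Rag1 also hold CAGCTG. These were chosen because they hold a match: the windows of Vpreb3, Pax5, Pou2af1, Lef1, Enpep and Dntt, which also rose, hold none of the 5 motifs. Windows of 2 genes that fell are set beside them.
Id2: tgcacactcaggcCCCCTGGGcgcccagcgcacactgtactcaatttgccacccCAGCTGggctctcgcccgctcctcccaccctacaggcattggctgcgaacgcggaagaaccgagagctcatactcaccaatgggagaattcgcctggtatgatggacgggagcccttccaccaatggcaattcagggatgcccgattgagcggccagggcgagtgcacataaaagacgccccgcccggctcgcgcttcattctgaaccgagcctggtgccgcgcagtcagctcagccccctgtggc
Ccr9: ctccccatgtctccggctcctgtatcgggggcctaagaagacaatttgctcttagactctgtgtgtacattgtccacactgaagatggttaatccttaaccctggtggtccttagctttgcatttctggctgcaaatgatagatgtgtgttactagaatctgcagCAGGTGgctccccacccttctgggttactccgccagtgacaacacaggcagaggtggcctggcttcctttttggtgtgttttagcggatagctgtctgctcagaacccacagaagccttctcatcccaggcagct
These lie at chr12:25096043-25096342 (minus strand) and chr9:123766961-123767260 (plus strand), and hold E-boxes as well.

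Such a match is common. CAGGTG was in 18.1% of the promoters of genes called higher, 18.7% of those of genes called lower and 17.4% of all 9751 tested genes with a promoter sequence. CAGCTG was in 16.1% and 15.9%, against 14.7% of all, and CCCNNGGG was in 18.9% and 20.1%, against 18% of all. TGTTTAC was in 3.01% and 2.3%, against 2.57% of all, and GAGGAAGT in 3.32% and 3.24%, against 3.1% of all. For each motif the share was thus nearly the same among genes called higher, genes called lower and all genes tested. Among genes called with an over 2-fold difference, the shares of both E-boxes and CCCNNGGG were above those of all genes in both directions. There CAGCTG was in 17.2% of promoters of higher and 18.6% of lower genes, and CCCNNGGG in 20% and 21.9%.

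The chains of the pre-B cell receptor were among the genes with the largest differences in the comparison. All 7 genes of the surrogate light chain and the receptor chains rose, with a median log2 difference of 9.53, against 0.04 over all genes. Vpreb1, one surrogate light chain gene, read 18.67 and 18.53 in RAG1-/- cells, against 9.12 and 9.02 in EBF-/- cells, a log2 difference of 9.53 (SE 0.12, adjusted p = 1.67e-05). Igll1, which encodes the λ5 part of the surrogate light chain, read 15.98 and 15.80 in RAG1-/- cells, against 5.28 and 5.47 in EBF-/- cells (10.51, SE 0.15, adjusted p = 1.7e-05). Vpreb3, whose protein binds newly made receptor chains, read 17.76 and 17.45 in RAG1-/- cells, against 5.49 and 5.61 in EBF-/- cells (12.06, SE 0.15). In all 3 the groups were separated by a gap many times the distance between replicates. Cd79b, the Igβ signalling chain, read 17.32 and 16.81 in RAG1-/- cells, against 7.64 and 7.20 in EBF-/- cells (9.64, SE 0.24). Its partner Cd79a read 10.46 and 10.22 in RAG1-/- cells and was not well above background in either EBF-/- sample, at least 23.8-fold higher. Ighm, the μ heavy chain, differed least of the 7, with 18.45 and 17.90 in RAG1-/- cells against 16.99 and 17.33 in EBF-/- cells (1.02, SE 0.23), and was not called without EBF-/- replicate 1 (adjusted p = 0.12) or without EBF-/- replicate 2 (adjusted p = 0.0533).

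Downstream of the receptor, among 22 proximal kinases and adaptors, 9 rose and 5 fell, the falls being close to the share of all genes called lower (20.5%). Blnk, the adaptor that carries the receptor signal to PLCγ2, read 17.97 and 17.85 in RAG1-/- cells, against 10.91 and 10.97 in EBF-/- cells (6.97, SE 0.11). The Src-family kinase gene Blk read 11.41 and 11.59 in RAG1-/- cells and was not well above background in EBF-/- cells, at least 53.1-fold higher. Prkcb, protein kinase C beta, read 14.36 and 14.06 in RAG1-/- cells, against 8.23 and 8.33 in EBF-/- cells (5.93, SE 0.15). By contrast Lat2, an adaptor also used by myeloid and NK cells, read 9.57 and 9.21 in RAG1-/- cells, against 14.16 and 14.05 in EBF-/- cells, and fell by 4.71 (SE 0.16). Lyn, Plcg2 and Vav1 had log2 differences of 0.15, -0.18 and -0.07 and were not called. Syk and Btk were called higher by 0.83 and 0.84, but not without EBF-/- replicate 1 (adjusted p = 0.11 for Syk and 0.0524 for Btk).

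**Figure D2:**
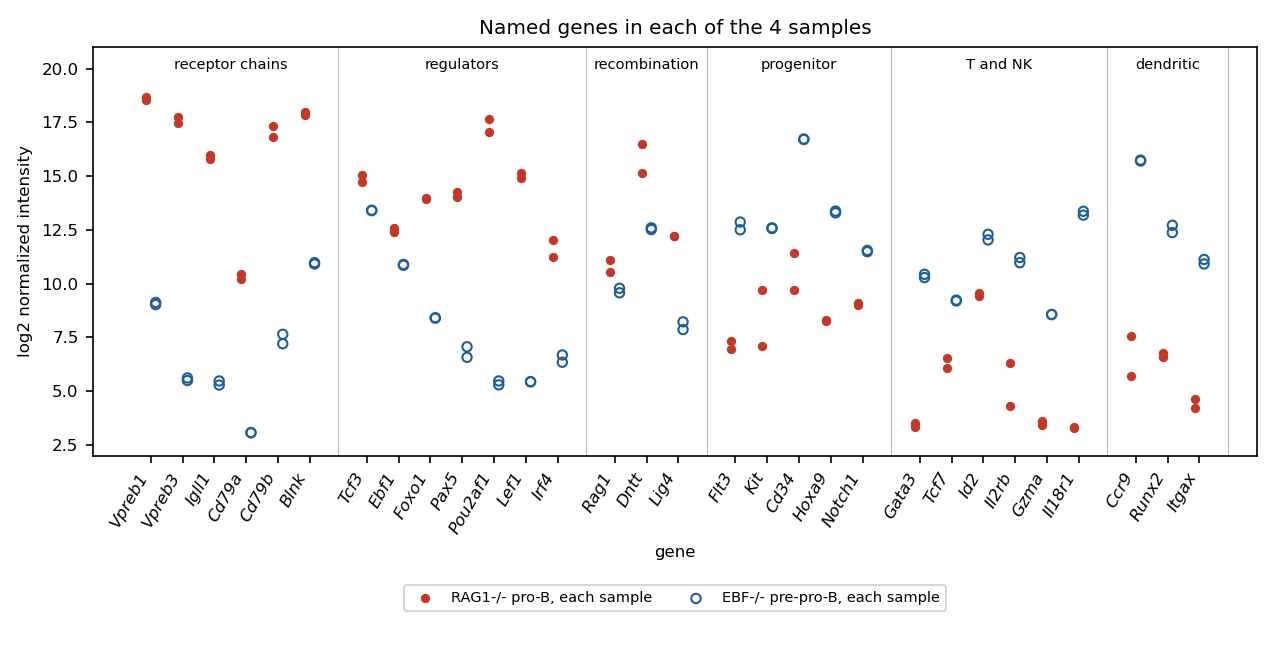
Log2 normalized intensity (y axis) of 30 genes (x axis, grouped by role) in each of the 4 samples; filled red points are the 2 RAG1-/- pro-B samples and open blue points the 2 EBF-/- pre-pro-B samples. Receptor chain, regulator and recombination genes lie higher in both RAG1-/- samples, progenitor, T, NK and dendritic genes lie lower in both, and the RAG1-/- replicates stand furthest apart for Kit (7.08 and 9.70).

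Of 22 B-lineage transcription factor genes, 15 rose and 1 fell, with a median log2 difference of 1.54. Tcf3, which encodes E2A, read 15.03 and 14.73 in RAG1-/- cells, against 13.41 and 13.39 in EBF-/- cells (1.48, SE 0.14, adjusted p = 0.00103). Foxo1 read 13.95 and 13.98 in RAG1-/- cells, against 8.41 and 8.39 in EBF-/- cells (5.57, SE 0.12, 47.5-fold), and a second Foxo1 probe gave 5.15. Pax5 read 14.24 and 14.02 in RAG1-/- cells, against 7.06 and 6.57 in EBF-/- cells (7.31, SE 0.21, 159-fold). The step between the groups was thus far larger for Foxo1 and Pax5 than for Tcf3 on the log2 scale. Pou2af1, the coactivator of octamer-binding factors in B cells, read 17.63 and 17.03 in RAG1-/- cells, against 5.29 and 5.47 in EBF-/- cells (11.95, SE 0.22). Lef1, the nuclear partner of β-catenin in pro-B cells, read 14.93 and 15.14 in RAG1-/- cells, against 5.44 and 5.43 in EBF-/- cells (9.60, SE 0.15). Ikzf3, which encodes Aiolos, was at least 65.8-fold higher, and Irf4, Spib, Bach2 and Ets1 rose by 5.11, 4.10, 3.35 and 2.20. Mef2c, a factor of lymphoid progenitors, was the member that fell, by 1.74. Myb, Runx1, Sox4, Spi1 and Ikzf1 differed by between -0.85 and -0.21 and were not called.

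Id proteins act against E2A by pairing with it. Id3 read 12.11 and 12.27 in RAG1-/- cells, against 5.83 and 6.20 in EBF-/- cells (6.17, SE 0.19), whereas Id2 read 9.44 and 9.58 in RAG1-/- cells, against 12.29 and 12.03 in EBF-/- cells, and fell by 2.65 (SE 0.15). The 2 Id genes thus moved in opposite directions. The E-protein gene Tcf12 differed by 0.34 and was not called. Bcl6 rose by 1.11 and Gfi1b fell by 2.16.

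Recombination genes rose or were not called. Of 17 genes of V(D)J recombination and end joining, 9 rose and 0 fell, with a median log2 difference of 0.51. Dntt, the terminal transferase that adds bases at heavy chain joints, read 15.15 and 16.49 in RAG1-/- cells, against 12.59 and 12.51 in EBF-/- cells (3.27, SE 0.43). Lig4, the ligase of end joining, read 12.21 and 12.20 in RAG1-/- cells, against 8.22 and 7.86 in EBF-/- cells (4.17, SE 0.17), and its partner Xrcc4 rose by 1.20. These 3 genes were clearly apart between the groups, while Prkdc, Xrcc6 and Atm were not called. Rag1 rose by 1.15 (SE 0.23, adjusted p = 0.0127), a call lost without EBF-/- replicate 1 (adjusted p = 0.0619) and without EBF-/- replicate 2 (adjusted p = 0.0888). Without these replicates the list held 4 and 5 genes called higher.

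Of 20 B cell surface genes tested, 13 rose, 1 fell and 6 were not called, against 20.4% of all genes called higher. Of the 20, 5 were not well above background in either EBF-/- sample. These were tested through RAG1-/- cells alone, so their direction was largely set by the filter on dim probes. Cd24a, which encodes heat-stable antigen, read 17.18 and 16.65 in RAG1-/- cells, against 11.00 and 10.97 in EBF-/- cells (5.93, SE 0.19). Bst1, known as BP-3, read 14.48 and 14.01 in RAG1-/- cells, against 6.37 and 6.05 in EBF-/- cells (8.04, SE 0.22). Enpep, known as BP-1, was at least 164-fold higher, Ms4a1 (CD20) at least 61.9-fold and Cd22 at least 20.4-fold. Ptprc, the CD45 gene whose B220 form was used to enrich the RAG1-/- cells, fell by 1.24. Spn, Cd93 and Il2ra were not called.

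Outside the receptor pathway, large rises were in genes of quite different function. Adgre5 (CD97), an adhesion receptor, rose by 7.84, Car2 (carbonic anhydrase) by 7.57 and Csrp2, a LIM domain protein gene, by 6.88. The bounds were highest for Cplx2, a synaptic vesicle protein gene, at 15.32 and 15.58 in RAG1-/- cells and not well above background in EBF-/- cells, at least 820-fold higher. Arl5c, a small GTPase gene, was at least 716-fold higher and Pde2a, a cyclic nucleotide phosphodiesterase gene, at least 353-fold. Next came the adaptor gene Grb7 (at least 322-fold), the forkhead factor gene Foxc1 (at least 266-fold), the glycine cleavage gene Gldc (at least 236-fold) and the alkaline phosphatase gene Alpl (at least 227-fold). Clgn and Mpzl2 were at least 181-fold and 172-fold higher.

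Genes of the dividing cell were higher in RAG1-/- cells, most evenly for mitosis. Of 30 mitosis genes, 29 rose and 0 fell, with a median log2 difference of 1.13. Plk1, the polo kinase, read 14.53 and 14.55 in RAG1-/- cells, against 13.07 and 13.10 in EBF-/- cells (1.46, SE 0.10), and Ccnb1 (cyclin B1) read 12.56 and 12.69 in RAG1-/- cells, against 11.06 and 11.19 in EBF-/- cells (1.49, SE 0.12). Differences of the 30 genes lay between 0.67 and 1.74, so they were small beside those of the receptor genes but alike. Among 29 replication genes (median 0.49) 15 rose and 0 fell, led by Rrm2, a ribonucleotide reductase subunit gene, at 1.98, and the 6 subunit genes of the MCM helicase, Mcm2 to Mcm7, were not called. Of 23 cyclin, E2F and Cdk inhibitor genes 13 rose, 2 fell and 8 were not called (median 0.98). Ccnd3, the cyclin D3 of pre-B cells, read 15.70 and 15.74 in RAG1-/- cells, against 13.07 and 13.05 in EBF-/- cells (2.66, SE 0.10). Cdk6, its partner kinase, read 13.79 and 14.27 in RAG1-/- cells, against 16.21 and 16.06 in EBF-/- cells, and fell by 2.11 (SE 0.19). The Cdk inhibitor genes Cdkn2a, Cdkn2c, Cdkn2d and Cdkn1b rose by 3.05, 2.79, 1.93 and 1.34, and the E2F genes E2f2 and E2f7 by 3.38 and 3.12. Without EBF-/- replicate 1, 18 mitosis and 6 replication genes were called higher, and without EBF-/- replicate 2, 21 and 6.

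Other biosynthetic lists moved less. Of 19 cholesterol synthesis genes (median 0.44) 11 rose and 0 fell, and Hsd17b7, Cyp51 and Sqle rose by 1.48, 1.11 and 0.84. That count fell to 3 without EBF-/- replicate 1 and to 4 without EBF-/- replicate 2. Dck, the salvage kinase for deoxynucleosides, rose by 2.51, and Impdh1 and Mthfd2 rose by 1.98 and 1.39. Of 30 ribosomal protein genes 0 rose and 4 fell, and of 26 respiratory chain genes 1 rose and 3 fell, with 0 called in either list without EBF-/- replicate 1 or without EBF-/- replicate 2. Both lists lie below the background share in each direction. Among 20 genes of MYC and ribosome production, 0 rose and 3 fell, both below the share of all genes. Mycn was the clearest, at 12.40 and 12.30 in RAG1-/- cells, against 14.32 and 13.91 in EBF-/- cells (-1.77, SE 0.17). Of 23 glycolysis genes 5 rose and 4 fell, near the share of all genes in each direction, and 1 fell without EBF-/- replicate 1 or without EBF-/- replicate 2, against 10 without RAG1-/- replicate 2. Hk1 rose by 1.39 and Pfkm fell by 1.56.

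Genes of stem and progenitor cells fell in RAG1-/- cells, 15 of 19 against 1 that rose, with a median log2 difference of -2.34. Flt3, the receptor for FLT3 ligand, read 7.32 and 6.94 in RAG1-/- cells, against 12.50 and 12.86 in EBF-/- cells, and fell by 5.55 (SE 0.21). FLT3 ligand was in the EBF-/- culture alone, and its part in this difference was not tested. Cd34 read 9.69 and 11.44 in RAG1-/- cells, against 16.72 and 16.70 in EBF-/- cells (-6.15, SE 0.55). Both genes separated the groups, Cd34 with a wider spread within RAG1-/- cells. Of the Hoxa cluster, which patterns progenitors, Hoxa9 read 8.26 and 8.29 in RAG1-/- cells, against 13.29 and 13.37 in EBF-/- cells (-5.05, SE 0.12), and Hoxa7 fell by 4.23. Hoxa10 and Hoxa5 were not well above background in RAG1-/- cells; Hoxa10 was lower there by at least 156-fold and Hoxa5 by at least 53.8-fold. Notch1 read 9.09 and 8.99 in RAG1-/- cells, against 11.48 and 11.54 in EBF-/- cells (-2.47, SE 0.13). Kit, the SCF receptor, read 7.08 and 9.70 in RAG1-/- cells, against 12.56 and 12.59 in EBF-/- cells (-4.19, SE 0.82), a call lost without EBF-/- replicate 1 (adjusted p = 0.0648) and without EBF-/- replicate 2 (adjusted p = 0.062). Erg, an ETS factor gene, was the member that rose, at 14.46 and 14.61 in RAG1-/- cells against 10.04 and 9.98 in EBF-/- cells (4.52, SE 0.12).

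T-lineage genes fell too, 13 of 17 against 1 that rose. Of the 17, 6 were not well above background in either RAG1-/- sample. These were tested through EBF-/- cells alone, so their direction was largely set by the filter on dim probes. Gata3, the T and innate lymphoid factor gene, was not well above background in RAG1-/- cells, against 10.43 and 10.28 in EBF-/- cells, at least 50.8-fold lower. The kinase gene Txk was lower by at least 73.4-fold, Cd247, the ζ chain of the T cell receptor, by at least 32.8-fold, and the costimulator Cd28 by at least 32.6-fold. Cd7 read 5.17 and 5.84 in RAG1-/- cells, against 11.97 and 12.32 in EBF-/- cells (-6.64, SE 0.28), and Tcf7 fell by 2.88. The list did not move as a whole. Lat, an adaptor of T cell receptor signalling, rose by 2.91, Cd3e and Cd4 were not called, and Cd3d, Cd3g, Cd8a and Bcl11b did not pass the filter on dim probes.

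All 15 tested genes of NK, innate lymphoid and cytotoxic cells fell, with a median of -4.81. Of the 15, 4 were not well above background in either RAG1-/- sample and were tested through EBF-/- cells alone. The list's summed linear intensity was 4129 and 6267 in RAG1-/- cells, against 129383 and 135139 in EBF-/- cells. Il18r1, the IL-18 receptor gene, was not well above background in RAG1-/- cells, against 13.36 and 13.18 in EBF-/- cells, at least 384-fold lower (adjusted p = 2.85e-05). Klrd1 (CD94) read 8.65 and 8.03 in RAG1-/- cells, against 13.28 and 13.28 in EBF-/- cells (-4.94, SE 0.23), and Tyrobp, the DAP12 adaptor, read 10.68 and 10.95 in RAG1-/- cells, against 15.70 and 15.75 in EBF-/- cells (-4.91, SE 0.13). For these the EBF-/- replicates were nearly equal and the groups far apart. Gzma was at least 14.6-fold lower, and Nfil3, a factor gene of innate lymphoid cells, fell by 3.07. The defining genes Ncr1, Eomes, Gzmb and Ifng did not pass the filter on dim probes. Fewer cells of a type and less RNA per cell cannot be told apart in bulk samples.

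Dendritic cell genes likewise fell, 10 of 14 against 1 that rose, with a median of -3.16 and summed linear intensities of 17701 and 14947 in RAG1-/- cells, against 175542 and 185533 in EBF-/- cells. Ccr9, a homing receptor of thymic progenitors and plasmacytoid dendritic cells, read 7.55 and 5.69 in RAG1-/- cells, against 15.70 and 15.74 in EBF-/- cells (-9.10, SE 0.58). Runx2 read 6.60 and 6.76 in RAG1-/- cells, against 12.71 and 12.37 in EBF-/- cells (-5.86, SE 0.18), and Cox6a2 fell by 5.60. Itgax (CD11c) was at least 80.4-fold lower. The member that rose was Tcf4, the E-protein gene of plasmacytoid dendritic cells, by 0.72, a call lost without EBF-/- replicate 2 (adjusted p = 0.0853). Siglech, a marker of those cells, read 5.54 and 2.88 in RAG1-/- cells, against 9.11 and 8.79 in EBF-/- cells (-4.74), and lost its call without EBF-/- replicate 1 (adjusted p = 0.0566). The labels name no sort of the EBF-/- cells, and the part of other blood cells in these differences was not tested.

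**Figure D3:**
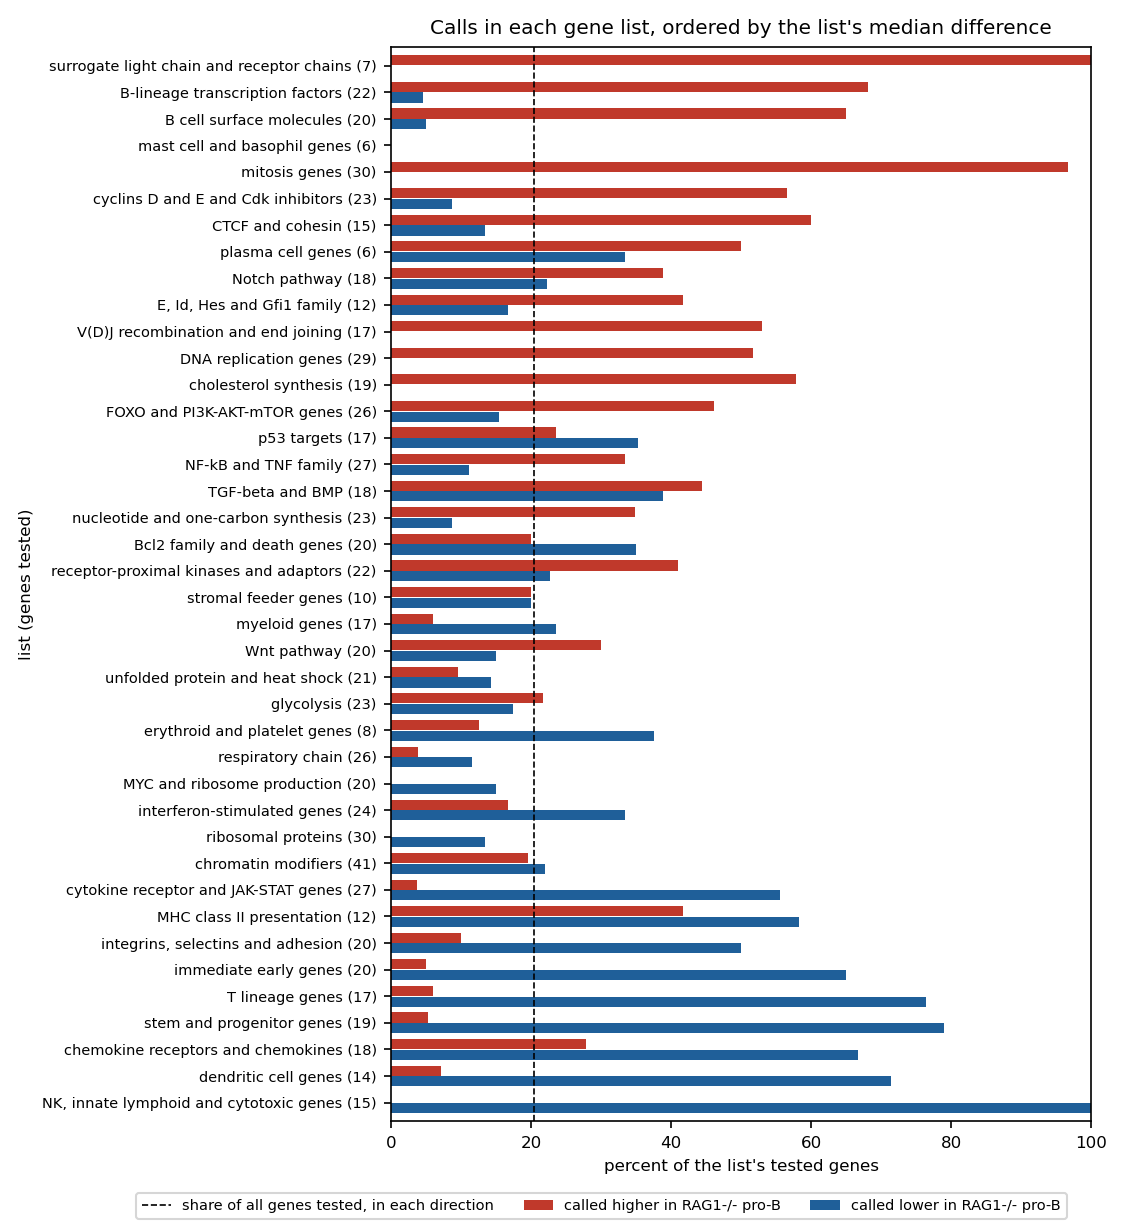
Percent of the tested genes of each of 40 gene lists (x axis) called higher (red, upper bar) and called lower (blue, lower bar) in RAG1-/- pro-B cells, with lists ordered by median log2 difference and the number of genes tested in parentheses; the dashed line is the share of all genes tested in each direction. Receptor chain and mitosis lists are all or nearly all red, the NK list is all blue and progenitor and T lists are mostly blue. Ribosomal protein and respiratory chain lists lie below the line.

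Among the genes that fell furthest was 5830411N06Rik, a gene whose role is not given here, at 5.09 and 2.83 in RAG1-/- cells, against 14.71 and 14.59 in EBF-/- cells (-10.69, SE 0.71, adjusted p = 0.000402). The phosphatase gene Ptprf read 5.86 and 6.06 in RAG1-/- cells, against 13.78 and 13.65 in EBF-/- cells (-7.76, SE 0.15). Pdcd1, the PD-1 receptor gene, fell by 7.39, Nrp2 (neuropilin-2) by 6.70, and Myo18b and Klhl30 by 6.76 and 6.74. Among genes with only a bound, the lowest in RAG1-/- cells after Il18r1 were Cd163l1 (at least 235-fold), Esm1 (at least 184-fold), Hoxa10, described above, then Ednra, the endothelin receptor gene (at least 94.8-fold), and Mst1r (at least 83.6-fold), none well above background in RAG1-/- cells. In several of these genes the RAG1-/- samples stood apart from each other. Jchain, which links antibody polymers, read 5.56 and 7.78 in RAG1-/- cells, against 14.17 and 14.06 in EBF-/- cells (-7.45, SE 0.69), and Tph1, the serotonin synthesis gene of mast cells, fell by 7.03 (SE 0.90). Adgre1 (F4/80) read 3.24 and 7.53 in RAG1-/- cells, against 11.92 and 11.88 in EBF-/- cells, a difference of -6.52 (SE 1.33) that was not called without EBF-/- replicate 1 (adjusted p = 0.0721) or without EBF-/- replicate 2 (adjusted p = 0.0668).

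Receptors for cytokines fell in number, 15 of 27 genes of cytokine reception and JAK-STAT signalling against 1 that rose. Il2rb, a chain of the IL-2 and IL-15 receptors, read 4.31 and 6.31 in RAG1-/- cells, against 10.97 and 11.21 in EBF-/- cells (-5.78, SE 0.65). Il18rap, the second chain of the IL-18 receptor, read 6.45 and 6.49 in RAG1-/- cells, against 10.67 and 10.86 in EBF-/- cells (-4.30, SE 0.17), and Il4ra fell by 1.97. The IL-7 and TSLP receptor genes Il7r and Crlf2 differed by 0.02 and -0.16, and Jak1, Jak2 and Stat5a by between -0.10 and 0.02, and none of these 5 was called. Socs2 and Pim2, targets of STAT5, fell by 1.27 and 1.80, while the targets Cish and Socs3 were not called.

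Chemokine genes and receptors moved both ways, 5 higher and 12 lower of 18, against 20.4% and 20.5% of all genes. Ccl5 read 7.07 and 7.25 in RAG1-/- cells, against 13.38 and 13.69 in EBF-/- cells (-6.38, SE 0.17), and the differences of Ccl4, Ccl9 and Ccr6 were -4.64, -4.22 and -4.49, all called lower. Among those that rose, Cxcr5, the receptor that guides B cells to follicles, read 13.13 and 13.13 in RAG1-/- cells, against 10.52 and 10.66 in EBF-/- cells (2.54, SE 0.12), Cxcr4, which holds B progenitors in marrow, rose by 1.31, and S1pr1 and S1pr4 rose by 2.67 and 3.33. Among 20 adhesion genes 10 fell and 2 rose, and 0 rose without EBF-/- replicate 1 or without EBF-/- replicate 2. Itgb7 read 8.90 and 10.53 in RAG1-/- cells, against 14.57 and 15.03 in EBF-/- cells (-5.08, SE 0.53), and Itgal and Itga4 fell by 2.55 and 1.33.

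Immediate early genes, which respond within minutes to stimulation, fell in 13 of 20 cases. Fos read 6.85 and 6.51 in RAG1-/- cells, against 12.27 and 12.00 in EBF-/- cells (-5.46, SE 0.20), and Ier3 read 5.33 and 5.60 in RAG1-/- cells, against 10.59 and 10.35 in EBF-/- cells (-5.00, SE 0.21). Jun went the other way, at 9.14 and 9.45 in RAG1-/- cells, against 8.00 and 7.76 in EBF-/- cells (1.42, SE 0.20). Egr2 was lower by at least 4.56-fold and Fosl2 by at least 7.24-fold, and Klf2, Klf6, Dusp1 and Zfp36 were not called.

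Bcl2, which protects cells from death, read 9.64 and 10.74 in RAG1-/- cells, against 13.98 and 14.06 in EBF-/- cells (-3.82, SE 0.36), while its relative Bcl2l1, which encodes BCL-XL, read 11.26 and 11.24 in RAG1-/- cells, against 8.68 and 8.39 in EBF-/- cells (2.71, SE 0.16). Of the death-promoting members, Bcl2l11 (BIM) fell by 2.44, Pmaip1 (NOXA) by 1.75 and Bbc3 (PUMA) by 0.86, and Bok was at least 30.7-fold higher. Mcl1 differed by 0.02 and was not called. Over the list of 20 genes of the Bcl2 family and cell death, 4 rose, near the share of all genes called higher, and 7 fell, and without EBF-/- replicate 1 the count that rose was 2.

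Signalling pathways that act on progenitors held members moving in both directions. In the PI3K and FOXO list 12 of 26 rose and 4 fell, against 20.4% and 20.5% of all genes. Igf1r was at least 20.3-fold higher, Pik3ip1, an inhibitor of PI3K, fell by 1.93, and Akt1 was not called. Mtor rose by 2.59 but lost its call without EBF-/- replicate 1 (adjusted p = 0.0607) and without EBF-/- replicate 2 (adjusted p = 0.0622). Against the fall of Notch1, the Notch target genes Hes5 and Dtx1 rose by 4.42 and 3.63 and Hes1 was at least 4.69-fold higher. In the Wnt list Axin2, a target gene of the pathway, was higher by at least 2.16-fold and Tcf7l2 by at least 16-fold, while the ligand gene Wnt10a was lower by at least 18.7-fold. Tgfb3 read 14.25 and 14.41 in RAG1-/- cells, against 9.32 and 9.36 in EBF-/- cells (4.99, SE 0.12), and Smad1 rose by 2.87 while Smad5 and Smad7 fell by 1.90 and 1.28. Among NF-κB and TNF family genes, Lta (lymphotoxin α) was at least 25.4-fold higher, Tnfrsf13c, the BAFF receptor gene, rose by 4.81 and Tnfrsf1a fell by 3.91. None of these pathways therefore had members that all went 1 way.

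MHC class II genes divided, 5 higher and 7 lower of 12. H2-Ab1 read 11.68 and 11.75 in RAG1-/- cells, against 10.35 and 10.39 in EBF-/- cells (1.34, SE 0.12), and Ifi30, the lysosomal thiol reductase gene, rose by 2.73. Cd74, the invariant chain, read 10.65 and 10.46 in RAG1-/- cells, against 11.94 and 12.12 in EBF-/- cells (-1.47, SE 0.14), and H2-DMa, a peptide loading gene, fell by 2.24. The 2 chains of one molecule, H2-Aa and H2-Ab1, moved in opposite directions. H2-Aa fell by 1.42, a call lost in the fit of all 6 array samples. Without EBF-/- replicate 1 the list had 2 genes called higher and 6 lower.

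Chromatin genes were called near the background share, 8 higher and 9 lower of 41. Ezh2, the H3K27 methyltransferase, rose by 1.55 and its partner Eed by 0.89. Smarca4, the BRG1 remodeller, read 17.05 and 16.54 in RAG1-/- cells, against 15.08 and 15.11 in EBF-/- cells (1.70, SE 0.19). Satb1, a genome organizer of lymphoid progenitors, read 11.10 and 11.00 in RAG1-/- cells, against 14.57 and 14.42 in EBF-/- cells, and fell by 3.45 (SE 0.12), and the methyltransferase gene Dnmt3b fell by 2.73. Without EBF-/- replicate 1 only 4 of the list were called lower. Of the 15 genes of CTCF and cohesin, 9 rose and 2 fell, and Ctcf itself rose by 0.77 but was not called without EBF-/- replicate 2 (adjusted p = 0.0615), where 3 of the list rose. Stag3, a cohesin subunit known from meiosis, fell by 3.44, while Esco2 and Sgo1 rose by 2.37 and 1.62.

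Some genes of other blood cells differed between the 2 RAG1-/- samples more than between the groups. Of 17 myeloid genes tested, 1 rose, and the 4 that fell were near the share of all genes called lower (20.5%). Of the 17, 8 were over 2-fold brighter in RAG1-/- replicate 2 than in RAG1-/- replicate 1, with a median gap of 0.81 on the log2 scale. S100a9, a neutrophil protein gene, read 5.24 and 12.82 in RAG1-/- cells, against 2.91 and 2.90 in EBF-/- cells. It was not called. Ctsg (cathepsin G) read 5.89 and 12.69 in RAG1-/- cells, against 7.78 and 7.89 in EBF-/- cells. Mpo (myeloperoxidase) read 9.15 and 14.62 in RAG1-/- cells, against 14.77 and 14.95 in EBF-/- cells. The differences of Ctsg and Mpo were not called either, and the 2 RAG1-/- values lay on both sides of the EBF-/- values for Ctsg. Of 6 mast cell and basophil genes 0 were called, and 4 were over 2-fold brighter in RAG1-/- replicate 2, among them Cpa3, at 4.96 and 10.53 in RAG1-/- cells against 10.53 and 10.52 in EBF-/- cells. The summed linear intensity of the myeloid list was 28345 and 90416 in RAG1-/- cells, against 63615 and 62225 in EBF-/- cells, and that of the mast cell list 335 and 2598 in RAG1-/- cells, against 1676 and 1693 in EBF-/- cells. The neutrophil genes Elane, Ngp, Ltf, Camp and S100a8 and the mast cell genes Mcpt8, Tpsb2 and Cma1 did not pass the filter on dim probes. Without RAG1-/- replicate 1 the myeloid list had 6 higher and 6 lower calls, and without RAG1-/- replicate 2 it had 2 and 8.

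**Figure D4:**
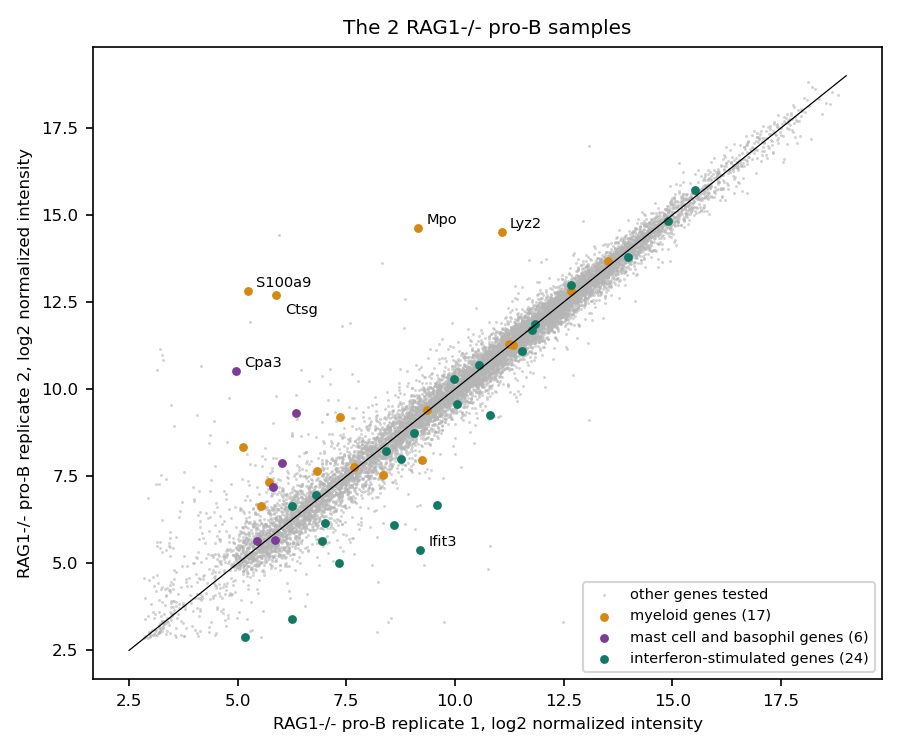
Log2 normalized intensity of the genes tested in RAG1-/- pro-B replicate 1 (x axis) and RAG1-/- pro-B replicate 2 (y axis), with equal values on the black line; myeloid genes are orange, mast cell and basophil genes purple and interferon-stimulated genes green. Mpo, Ctsg, S100a9, Lyz2 and Cpa3 lie above the line and Ifit3 below it, while most genes lie along it (r = 0.981).

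Interferon-stimulated genes showed the reverse gap, with 8 of 24 over 2-fold brighter in RAG1-/- replicate 1. Among them Ifit3 read 9.19 and 5.39 in RAG1-/- cells, against 8.95 and 5.21 in EBF-/- cells, a gap in both groups. In EBF-/- cells 3 of the 24 were over 2-fold brighter in replicate 1 and 0 in replicate 2. Between the groups 4 of the 24 rose, near the share of all genes called higher (20.4%). Against 20.5% of all genes called lower, 8 of the 24 fell. Gbp2 and Gbp3 rose by 2.99 and 2.68, and Mx2 read 7.00 and 6.16 in RAG1-/- cells, against 11.60 and 11.53 in EBF-/- cells (-4.98, SE 0.30). Without EBF-/- replicate 1, 5 fell. S17 stromal cells were present in the EBF-/- culture alone. Of 22 stromal genes, 10 were tested, 2 rose (0 without EBF-/- replicate 1) and 2 fell, and the collagen genes Col1a1 and Col3a1, Dcn and Cxcl12 did not pass the filter on dim probes. Differences in the stromal list ran from -5.19 to 3.21, with a median of 0.18. Its calls were near the share of all genes called higher (20.4%) and lower (20.5%). The member that fell furthest was Pdgfrb, a mesenchymal receptor gene, at 7.72 and 7.61 in RAG1-/- cells, against 12.96 and 12.74 in EBF-/- cells (-5.19, SE 0.15). The list's summed linear intensity was 19812 and 20129 in RAG1-/- cells, against 28812 and 28625 in EBF-/- cells, and its part in the results was not tested.

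The same 2 kinds of cell were profiled in the series by ChIP-seq, with 1 library for each factor or mark in each cell type. A gene was set beside the peaks by whether a peak of the deposited list lay within 20 kb of its probe on mm8, which was possible for 12523 genes; probes lie towards the 3′ ends of transcripts, so this is not a distance from the start site. Peak lists differed in length, with 11846 E2A peaks in RAG1-/- cells against 4531 in EBF-/- cells, and no test between cell types is possible. Of 2573 genes with an E2A peak in RAG1-/- cells alone, 25.3% were called higher and 18.4% lower. Of 848 genes with an E2A peak in EBF-/- cells alone, 10.4% were called higher and 26.8% lower. Genes beside a peak of both cells were called higher in 19.5% and lower in 25.2% of 1726 cases, and those beside neither in 20.1% and 19.5% of 7376.

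The same was done for histone marks, against 20.4% of all genes tested called higher and 20.5% called lower. Of 999 genes with H3K4me3 within the window in RAG1-/- cells alone, 31.4% were called higher and 20.5% lower, and of 58 with it in EBF-/- cells alone 13.8% and 39.7%. For H3K9/14ac the shares were 36.9% higher and 17.7% lower of 406 genes marked in RAG1-/- cells alone, and 16.7% and 32.5% of 622 genes marked in EBF-/- cells alone. H3K27me3, the mark of Polycomb repression, stood beside 708 genes in RAG1-/- cells alone, 16.5% called higher and 27.7% lower, and beside 312 in EBF-/- cells alone, 22.4% and 21.8%. For H3K4me2 the shares were 31.2% higher and 19.6% lower of 811 genes marked in RAG1-/- cells alone, and 20.8% and 26% of 770 marked in EBF-/- cells alone. For H3K4me1 they were 20.5% and 20.5% of 5263 genes marked in RAG1-/- cells alone, and 17.3% and 25.7% of 677 marked in EBF-/- cells alone. Over all peaks of a library the order turned. H3K4me3 of RAG1-/- cells lay by 55% of genes called higher and 61.3% of those called lower, against 60.4% of all. H3K9/14ac of RAG1-/- cells lay by 54% and 61.6%, against 60% of all. Genes marked in neither cell type were called higher in 23.1% of cases for H3K4me1, 24.3% for H3K4me2, 23.3% for H3K4me3 and 24.5% for H3K9/14ac. In the same order they were called lower in 18.4%, 15%, 19.8% and 17.9%. Genes marked in both were called higher in 17.2%, 18%, 16.6% and 17.3%, and lower in 22.3%, 21.9%, 20.9% and 21.2%. For H3K27me3 the shares were 20.7% and 20% with neither marked, and 12.1% and 25% with both.

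Genes beside several factors in RAG1-/- cells were called higher more often. With peaks of 0, 1, 2 or 3 of E2A, EBF1 and FOXO1 in the window, 19.3%, 20.1%, 28.2% and 36.6% of genes were called higher and 19.9%, 22.1%, 20.2% and 15.5% were called lower, over 7794, 3614, 973 and 142 genes. Cd79a, Bst1, Vpreb2, Cd22 and Mzb1 had all 3 within 20 kb. Igll1, described above with its E-boxes, had an E2A peak 2.7 kb and an EBF1 peak 3.1 kb from its probe in RAG1-/- cells, and Cd79b had them at 1.2 and 3.1 kb. Vpreb3 had both at 0.2 kb. Of the genes that fell, Hoxa9 had its nearest E2A peak 81.9 kb from its probe in RAG1-/- cells, against 6.6 kb in EBF-/- cells; an EBF1 peak of RAG1-/- cells lay 2.3 kb from it. For Il18r1 the distances were 179.9 kb in RAG1-/- cells, against 14.7 kb in EBF-/- cells. The nearest EBF1 peak was 4186.5 kb from the probe of Lef1, although Lef1 had an E2A peak of RAG1-/- cells at 9.1 kb. For Pax5 the nearest EBF1 peak was 105.6 kb from the probe. As probes lie towards the 3′ ends of transcripts, this does not show whether that peak lies within the gene.

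**Figure D5:**
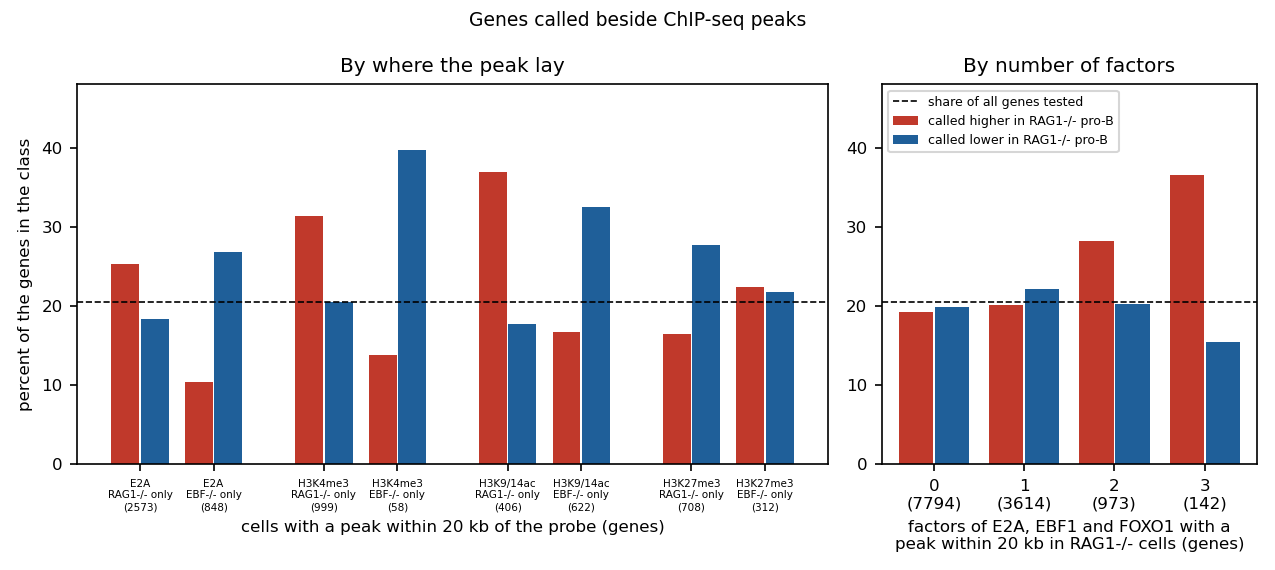
Percent of genes (y axis) called higher (red) and lower (blue) in RAG1-/- pro-B cells, for genes with a peak within 20 kb of the probe in only one of the cell types (left, by factor or mark) and by how many of E2A, EBF1 and FOXO1 had such a peak in RAG1-/- cells (right); numbers of genes are in parentheses and the dashed line is the share of all genes tested. Peaks of RAG1-/- cells alone go with more higher calls for E2A, H3K4me3 and H3K9/14ac, and the share called higher runs from 19.3% with 0 factors to 36.6% with 3.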

How the data were processed

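RNA of each sample was hybridised to a 2-colour Agilent mouse array, on which the labels and the file headers give each sample's dye. Per the file headers, the deposited signal intensity had been background-subtracted, detrended and dye-normalized within the array by the authors with Agilent Feature Extraction 9.5.3.1, and probe positions are on mm8. Each of the 4 samples was read only from its own channel, 1 per array, with 1 sample of each group in each dye. The intensities were taken to log2 and quantile-normalized over the 4 channels. They have no depth in reads, and the number of arrays limits precision. ChIP-seq peak lists were made by the authors with HOMER on mm8, per the submitters' processing notes, and the score in each deposited list is the authors' own.

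A probe was kept where both samples of either group had it well above background (21963 of 41113), and the brightest kept probe stood for a gene. Of 41174 probes, 23483 were named through a RefSeq accession, 4514 through a name seen with one, 3176 by current symbol, 1931 by synonym and 1197 by the file's name, and 6873 had no name. The fit was limma 3.58.1 in R 4.3.3, group only, with a trended prior and Benjamini-Hochberg adjustment at 0.05. A bound divides the bright group's mean by the dim group's mean of the higher of its signal and the array's lowest well-measured signal. The 2 E2A-/- array samples were left out, since they lay far apart in B cell genes (Vpreb3 at 14.36 and 3.84). On simulated data made from these 12552 genes, a log2 change of 1 was called in 41 of 67 genes, of 2 in 61 of 67 and of 4 in 66 of 66. Of 186 calls 18 were false, a larger share than the threshold of 0.05. Far fewer genes were changed there than were called in the data, and the spreads were taken from the fit. These shares therefore need not hold for the data. Genes were named by rule: the 15 largest measured and 10 largest bounded differences in each direction, the regulators of the network, and members of the 40 lists. The members and the lists were chosen with earlier results of these data known. Promoters are from RefSeq on GRCm38.p6. Alternatives were other normalizations, filters, probe summaries, priors, dye and replicate terms, and each sample left out. A few genes are not reported here.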

Additional observations from a re-analysis of the deposited data

Results flagged for a closer look

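Signal was present in data that the comparison does not use. The Cy5 channel of the array of EBF-/- replicate 2 and the Cy3 channel of the array of RAG1-/- replicate 2 have no RNA described in the labels. In these channels 54.2% and 54% of spots were well above background, against 3.27% and 1.31% of the 153 negative control spots in the same channels. What RNA they hold was not analysed here.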

How the results depend on the processing

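The counts of 2560 higher and 2575 lower genes stayed within 1.5 times of these values under all alternatives but the removal of an EBF-/- sample. Leaving out each sample in turn gave 1473 to 2621 higher and 1398 to 2828 lower genes. The lowest counts came without EBF-/- replicate 1 (1473 and 1398), and without EBF-/- replicate 2 they were 1735 and 1445. The sample left alone was then assumed to vary like the other group. A call lost without an EBF-/- sample thus did not hold when the spread within a group came from the 2 RAG1-/- samples alone. Over all genes tested the correlation of same-numbered deviations was 0.005. Same-numbered samples of the 2 groups carried opposite dyes, so this value cannot show whether the replicate numbers pair the samples. The fit with the replicate block called 2385 and 2423. Dye as a term gave 2441 and 2506. Median scaling gave 2698 and 1981 and moved the median of all genes to 0.17, against 0.04. No filter on dim probes gave 2079 and 2115. Genes called in the opposite direction numbered 2 with the mean over kept probes, 3 with probes matched by RefSeq accession only (chosen after seeing the data) and 0 under the others. Of 182 genes called and followed across settings, 2 lost the call in the fit of all 6 array samples (H2-Aa and Ly6d) and 7 with no filter on dim probes. Without RAG1-/- replicate 2, Ctsg turned to -1.94 and Lyz2 to -1.18, against 4.86 and 2.26 without RAG1-/- replicate 1, and the cause was not tested. An E2A peak of RAG1-/- cells lay within 20 kb of 38.7% of genes called higher and 35.3% of those called lower, against 34.3% of all. Within 10 kb the shares were 24% and 21.1%, and within 50 kb 61.4% and 59.5%. For the upper part of the list by score they were 26.6% and 20.2%. The 95% intervals of the higher and lower shares overlapped in each window, but not for the upper part by score. For E2A peaks of EBF-/- cells the shares were 16.6% and 25.8% within 20 kb, against 20.6% of all. In the same order they were then 9.7% and 15.8%, 31.8% and 45.6%, and 9.31% and 14.5%. Calls of named genes lost without an EBF-/- sample are given beside the gene. Signal over background limits the genes that have only a bound.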
